A study of Mus musculus with 8 samples.

Results

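The ATF4 amino acid and stress response genes are 35 genes of serine, asparagine and one-carbon metabolism, amino acid transport and stress signaling that the transcription factor ATF4 is known to drive. They were taken by symbol from the 24062 genes of the raw count table of cultured immature myeloid cells (IMCs), and all 35 symbols were found. The set was chosen in part by measured values, the changes of Phgdh, Pck2 and Atf5 in these same libraries. The rule names no comparison, and it was taken to be the knockout comparisons, since Phgdh and Pck2 were lower in PARP2CKO and Atf5 higher in PARP1CKO. Values of the members in these comparisons are therefore given as descriptions, and nothing is read from the counts of members called there, which stand beside the share of all genes called. Of the 35 genes, 34 were among the 13197 genes that passed the filter on low counts, and Cbs was not.

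The RNA-seq data held 8 libraries in 4 groups of 2, made to compare deletion of either of the DNA repair and ADP-ribosylation enzymes PARP1 and PARP2 in myeloid cells with littermate controls. PARP1 WT mice were PARP1 flox/flox and PARP1CKO mice carried PARP1 flox/flox with lysozyme-Cre. PARP2 WT mice were PARP2 flox/flox and PARP2CKO mice carried PARP2 flox/flox with lysozyme-Cre. All mice were C57BL/6 and 2 months old, all 4 groups carried floxed alleles, and lysozyme-Cre acts in cells of the myeloid lineage, so that other cells of the marrow keep the gene. Bone marrow cells of every group were grown for 3 days with M-CSF, the growth factor that turns marrow progenitors into monocytes and macrophages, at 40 ng/mL. The labels do not name the mice or cultures behind the libraries of a group, so errors measure the spread between these libraries, which may be technical.

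ATF4 is a basic leucine zipper protein whose mRNA is translated more when the initiation factor eIF2alpha is phosphorylated, as happens when a cell lacks amino acids or accumulates unfolded protein. With partners of the C/EBP family it binds composite C/EBP-ATF elements near genes that make amino acids, import them and feed one-carbon units into nucleotide synthesis. Macrophages and their precursors rely on these supplies for growth, redox balance and cytokine production, and feedback members of the set shut the response off again.

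The promoter sequences below are shown because they carry letters of the C/EBP-ATF element in the genes described here. The motif TGATGNAA, read on both strands (its other strand reads TTNCATCA), was searched from 250 bases before to 50 bases after each start site in RefSeq, GRCm38.p6 (mm10). A window was matched for 29 of the 35 members, and 8 of these 29 genes (27.6%) held the motif, against 284 of the 9800 tested genes with a window (2.90%) and 3.97% of all 32851 windows. Eif4ebp1, Aldh1l2, Cth, Slc7a5, Slc7a3 and Slc1a5 had no window in the table. Each line gives 24 bases of the gene's own strand with the motif in capitals. The sequences of Slc7a11 overlap and hold 2 motifs on opposite strands.
Trib3, chr2:152344031-152344054, minus strand: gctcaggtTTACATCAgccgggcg
Chac1, chr2:119351041-119351064, plus strand: ccctgccgTTGCATCActcctgcc
Nupr1, chr7:126625565-126625588, minus strand: gggccagaTTGCATCAgacagggc
Asns, chr6:7693217-7693240, minus strand: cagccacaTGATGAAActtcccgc
Pycr1, chr11:120643836-120643859, minus strand: cctgtgtaTGATGCAAtgcacaag
Pck2, chr14:55540155-55540178, plus strand: cttcaaagTTACATCAgtatctta
Slc7a11, chr3:50443664-50443687, minus strand: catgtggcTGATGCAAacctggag
Slc7a11, chr3:50443645-50443668, minus strand: tggagaatTTGCATCAtcatgcag
Slc1a4, chr11:20332702-20332725, minus strand: ctcctgcgTTGCATCAtctccagc
Counted from the start site, the first base of the motif lay between -193, in Chac1, and 15, in Trib3. A match describes letters in the window, and binding of ATF4 was not measured.

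In PARP2CKO IMCs 33 of the 34 measured members were at a lower level than in PARP2 WT IMCs, with a median log2 fold change of -0.22, while 50.7% of all tested genes were lower. The lower members included enzymes for serine (Phgdh, Psat1, Psph), asparagine (Asns) and proline (Pycr1, Aldh18a1), importers of cystine, glycine and neutral amino acids, and Atf4 itself, and Slc3a2 was the exception (49.3% of all genes were higher). In PARP1CKO IMCs 25 of 34 members were higher (52.1% of all genes) and 9 lower (47.9%) than in PARP1 WT, and both PARP1CKO libraries exceeded all others in Atf5. This direction rested on single libraries: without PARP1 WT replicate 2, or without PARP1CKO replicate 2, 15 members were higher and 19 lower. Both patterns belong to the comparisons taken to have chosen the set. Within groups nearly all members also moved together between the 2 replicate libraries.

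**Figure D1:**
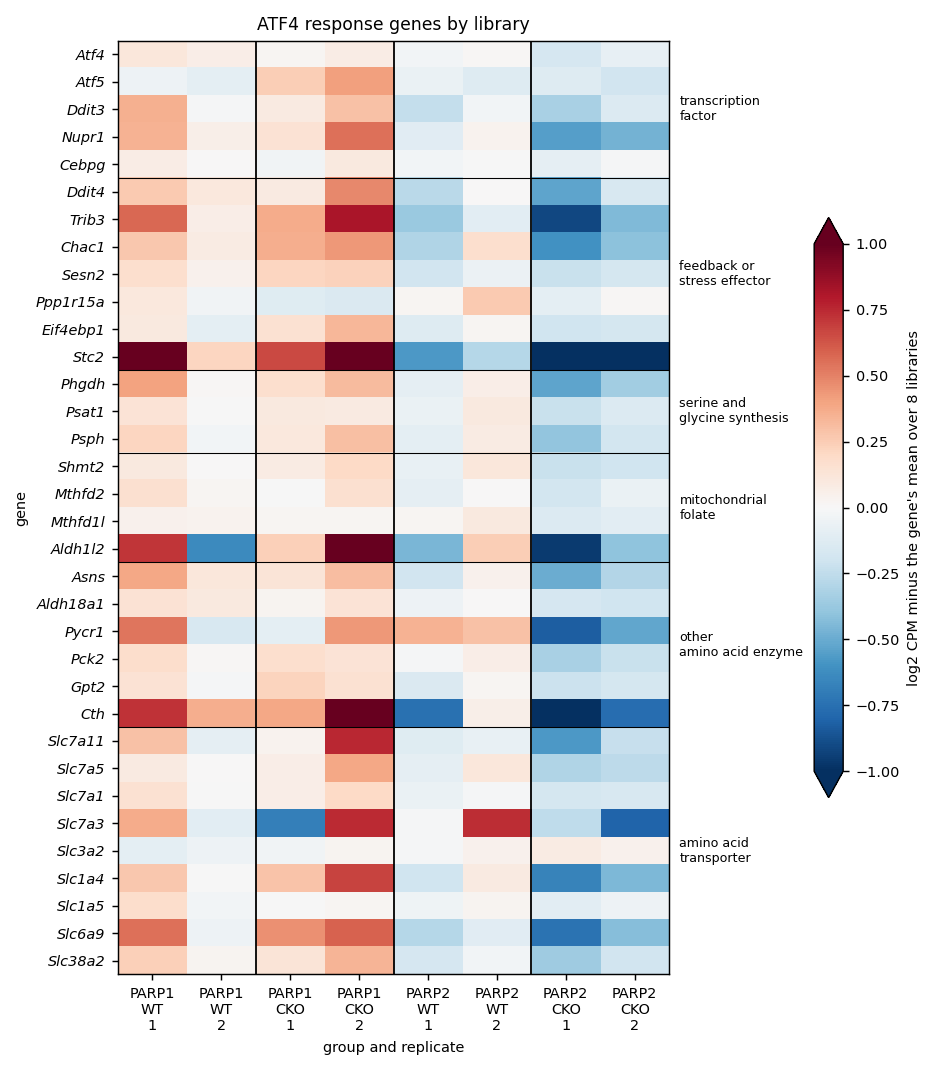
Level of each of the 34 measured ATF4 response genes in each of the 8 libraries, as log2 CPM (counts scaled to the library total and TMM factor) minus the mean of the gene over the libraries. Columns are libraries by group and replicate number, rows are genes by role, red is above and blue below the mean, and values beyond 1 in either direction take the end colors. PARP2CKO replicate 1 held the lowest value of 29 of the 34 genes.

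The counts assigned to genes summed to between 37852450 and 61845125 per library. Parp1 was at 202 and 211 CPM in PARP1 WT and 63.2 and 59.1 in PARP1CKO, and Parp2 was at 48.2 and 48.3 CPM in PARP2 WT and 25.7 and 25.6 in PARP2CKO, so each targeted gene was lower in its own knockout without being absent. Parp1 also differed between the PARP2 WT libraries, at 251 and 155 CPM. Genes of macrophages and monocytes were abundant, with the M-CSF receptor gene Csf1r between 1134 and 1273 CPM and all 10 listed markers at or above 48.7 CPM in every library. Neutrophil genes summed to between 2701 and 3560 CPM. In bulk RNA fewer cells of a type and less RNA per cell cannot be told apart.

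Per kilobase of exon the most abundant members were Atf4, at 132 to 159.9 CPM per kb, and Slc3a2, the heavy chain shared by several amino acid exchangers, at 128 to 144 CPM per kb over the 8 libraries. The ranges of both overlap. Shmt2 followed at 45.3 to 60.4 CPM per kb, then Atf5 at 32.5 to 49.5 CPM per kb, Asns at 25.5 to 46.9 CPM per kb and Phgdh at 24.5 to 46.5 CPM per kb, and each of these overlapped with its neighbor in this order. At the other end were Pycr1 at 0.145 to 0.374 CPM per kb, Cth at 0.0781 to 0.396 CPM per kb, Slc7a3 at 0.0383 to 0.117 CPM per kb and Stc2 at 0.0194 to 0.125 CPM per kb. Cbs, the enzyme that joins homocysteine and serine to form cystathionine, had 1 and 2 counts in PARP1 WT, 1 and 1 in PARP2 WT and none in the knockout libraries. These values lie at or under a floor of 3 counts, so no fold is given. Of the 35 members, 32 had at least 10 counts in both libraries of all 4 groups.

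**Figure D2:**
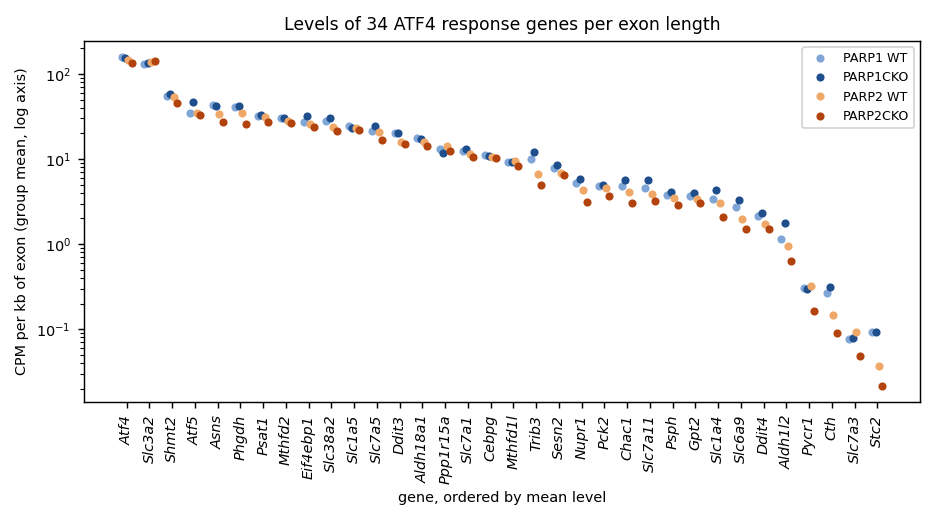
Mean level of 34 ATF4 response genes in each group, in CPM per kilobase of exon on a log axis, ordered by the mean over all libraries. Points are the means of 2 libraries, without error bars, and Atf4 and Slc3a2 stand above 127 CPM per kilobase in every library.

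The members are described by role in the paragraphs that follow, with replicate 1 given before replicate 2 in each group. Fold changes are log2 of the knockout over its WT control ± the standard error of the fit. Levels in CPM compare a gene between libraries and not genes with each other. In GENCODE M21 exons of 9 members overlap those of another gene, so that their counts are uncertain: Shmt2 (Ndufa4l2), Atf5 (Il4i1 and Nup62), Ddit3 (Mars and Gm4189), Ppp1r15a (Tulp2), Cebpg (Gm44836 and Gm45095), Pck2 (Gm10876), Psph (Cct6a), Slc6a9 (B4galt2 and Ccdc24) and Aldh1l2 (D10Wsu102e).

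Among the transcription factors, Atf4, on chromosome 15 from 80255184 to 80257541, had 377 and 366 CPM for PARP1 WT, 354 and 367 for PARP1CKO, 344 and 352 for PARP2 WT, and 311 and 329.6 for PARP2CKO. Both PARP2CKO libraries lay below the other 6, with a log2 fold change of -0.12 ± 0.045, while the PARP1 groups overlapped (-0.04 ± 0.045). Atf5, a relative of ATF4 linked to the mitochondrial stress response, lies on chromosome 7 from 44812256 to 44816658 and had 71.3 and 69.2 CPM for PARP1 WT, 87.8 and 98.6 for PARP1CKO, 70.8 and 67.8 for PARP2 WT, and 67.8 and 64.7 for PARP2CKO. Both PARP1CKO libraries were above all others, and the log2 fold change was 0.41 ± 0.058 there and -0.07 ± 0.058 in PARP2CKO, where the groups overlapped. Nupr1, a stress-induced chromatin cofactor, had 14.3 and 11.7 CPM for PARP1 WT, 12.4 and 16.5 for PARP1CKO, 10.4 and 11.5 for PARP2 WT, and 7.68 and 8.12 for PARP2CKO. It was lower in PARP2CKO without overlap (-0.47 ± 0.15) and overlapped between the PARP1 groups (0.15 ± 0.14). Cebpg, a dimer partner of ATF4, was the steadiest of these genes, with 63.7 and 60.6 CPM for PARP1 WT, 59.04 and 64.5 for PARP1CKO, 59.3 and 60.2 for PARP2 WT, and 56.8 and 59.9 for PARP2CKO. Its groups overlapped in both lines, with log2 fold changes of -0.01 ± 0.053 in PARP1CKO and -0.04 ± 0.053 in PARP2CKO. Ddit3, which encodes the stress factor CHOP, ranged from 23.97 to 38.5 CPM and overlapped in both lines (0.01 ± 0.13 and -0.10 ± 0.13).

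Over the 7 feedback and stress effectors the PARP2CKO median was -0.21 on the log2 scale, against -0.10 over the 5 transcription factors. Trib3, a pseudokinase that restrains ATF4, had 24.7 and 17.5 CPM for PARP1 WT, 21.5 and 29.4 for PARP1CKO, 12.9 and 15.4 for PARP2 WT, and 8.85 and 12.3 for PARP2CKO. The PARP2CKO libraries were the lowest of the 8 (-0.43 ± 0.22), and in PARP1CKO replicate 2 alone exceeded both controls (0.28 ± 0.21). Chac1, which degrades glutathione, had 8.45 and 7.44 CPM for PARP1 WT, 9.04 and 9.45 for PARP1CKO, 5.69 and 7.86 for PARP2 WT, and 4.59 and 5.28 for PARP2CKO, and its knockout libraries were above both controls in the PARP1 line (0.22 ± 0.15) and below both in the PARP2 line (-0.46 ± 0.16). Eif4ebp1, the translation repressor 4E-BP1, separated in the same opposite way, with 63.6 and 55.6 CPM for PARP1 WT, 66.2 and 74.7 for PARP1CKO, 54.5 and 60.3 for PARP2 WT, and 51.7 and 52.7 for PARP2CKO and log2 fold changes of 0.24 ± 0.080 and -0.14 ± 0.080. Sesn2, a stress-induced brake on mTORC1, had 28.8 and 26.5 CPM for PARP1 WT, 29.8 and 30.04 for PARP1CKO, 22.4 and 24.6 for PARP2 WT, and 22.03 and 22.7 for PARP2CKO. It was without overlap in PARP1CKO (0.12 ± 0.065) and overlapped in the PARP2 line (-0.07 ± 0.065). Ppp1r15a, the phosphatase subunit GADD34 that removes the phosphate from eIF2alpha, had 40.3 and 36.6 CPM for PARP1 WT, 34.6 and 34 for PARP1CKO, 38.1 and 45.1 for PARP2 WT, and 35.02 and 37.9 for PARP2CKO. Like Mthfd1l, it was lower in the knockout of both lines without overlap (-0.16 ± 0.084 in PARP1CKO, -0.19 ± 0.083 in PARP2CKO). Stc2, a secreted glycoprotein, was scarce, with 0.646 and 0.302 CPM for PARP1 WT, 0.416 and 0.531 for PARP1CKO, 0.173 and 0.211 for PARP2 WT, and 0.101 and 0.124 for PARP2CKO, and its log2 fold changes carried large errors (0.04 ± 0.38 and -0.77 ± 0.55). Ddit4, another brake on mTORC1, ranged from 2.31 to 4.65 CPM and overlapped in both lines (0.11 ± 0.18 and -0.21 ± 0.19).

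The 3 enzymes of serine synthesis were all lower in PARP2CKO without overlap between the groups (18.8% of all tested genes were). The change of Phgdh, counted among them, served to choose the set. Phgdh, which catalyzes the first step and lies on chromosome 3 from 98313170 to 98339990, had 116 and 88.04 CPM for PARP1 WT, 98.5 and 109 for PARP1CKO, 82.2 and 91.5 for PARP2 WT, and 60.8 and 68.8 for PARP2CKO. Its log2 fold change was -0.42 ± 0.12 in PARP2CKO and 0.03 ± 0.12 in PARP1CKO, and the control libraries themselves reached from 82.2 to 116 CPM. Psat1, the next enzyme, had 143 and 129 CPM for PARP1 WT, 138 and 138 for PARP1CKO, 124 and 139 for PARP2 WT, and 111 and 118 for PARP2CKO, with -0.19 ± 0.066 in PARP2CKO and 0.02 ± 0.066 in PARP1CKO. Psph, which releases serine, had 17.6 and 14.9 CPM for PARP1 WT, 16.3 and 18.7 for PARP1CKO, 14.2 and 16.1 for PARP2 WT, and 11.6 and 13.4 for PARP2CKO, with -0.28 ± 0.11 in PARP2CKO and 0.11 ± 0.11 in PARP1CKO. In none of the 3 genes did the PARP1CKO libraries separate from the PARP1 WT libraries.

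The mitochondrial folate enzymes draw one-carbon units from serine, and 2 of the 4 were lower in PARP2CKO without overlap (18.8% of all tested genes). Shmt2, which splits serine to glycine, was one of these, with 176 and 164 CPM for PARP1 WT, 174 and 188 for PARP1CKO, 156 and 177 for PARP2 WT, and 141 and 142 for PARP2CKO, and had log2 fold changes of -0.23 ± 0.066 in PARP2CKO and 0.09 ± 0.066 in PARP1CKO. Mthfd2, the dehydrogenase of the pathway, had 112 and 102 CPM for PARP1 WT, 100.2 and 112 for PARP1CKO, 93.98 and 101 for PARP2 WT, and 88.4 and 95.6 for PARP2CKO, and its groups overlapped in both lines (-0.01 ± 0.072 in PARP1CKO, -0.08 ± 0.071 in PARP2CKO). Mthfd1l, which makes formate, had 41.5 and 41.1 CPM for PARP1 WT, 40.7 and 40.8 for PARP1CKO, 40.8 and 42.96 for PARP2 WT, and 36.6 and 37.4 for PARP2CKO. Its replicates were close together, and the PARP2CKO libraries lay below the other 6 (-0.18 ± 0.044), with -0.02 ± 0.045 in PARP1CKO. Aldh1l2, which oxidizes formyl-tetrahydrofolate, varied widely between replicates, from 3.84 to 17.7 CPM, and overlapped in both lines (0.66 ± 0.45 and -0.59 ± 0.47).

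The other amino acid enzymes were lower in PARP2CKO without overlap in all 6 measured cases (18.8% of all tested genes). The change of Pck2, counted among them, served to choose the set. Asns, asparagine synthetase, had 128 and 107 CPM for PARP1 WT, 107 and 121 for PARP1CKO, 86.2 and 101 for PARP2 WT, and 69.8 and 80.3 for PARP2CKO, with a log2 fold change of -0.32 ± 0.11 in PARP2CKO and -0.04 ± 0.11 in PARP1CKO. Pck2, the mitochondrial form of phosphoenolpyruvate carboxykinase, lies on chromosome 14 from 55540266 to 55551242 and had 39.3 and 34.99 CPM for PARP1 WT, 39.1 and 38.3 for PARP1CKO, 34.4 and 36.4 for PARP2 WT, and 27.7 and 29.9 for PARP2CKO. Its replicates differed most in PARP1 WT, by 0.17 on the log2 scale. The PARP2CKO libraries were the lowest of the 8 (-0.30 ± 0.067), and the PARP1 groups overlapped (0.06 ± 0.067). Aldh18a1, which opens proline synthesis, had 72.96 and 70.9 CPM for PARP1 WT, 67.5 and 72.8 for PARP1CKO, 63.8 and 66.3 for PARP2 WT, and 58.9 and 57.7 for PARP2CKO, with -0.16 ± 0.047 in PARP2CKO and -0.04 ± 0.047 in PARP1CKO. Pycr1, which closes it, was at a low level, with 1.47 and 0.907 CPM for PARP1 WT, 0.952 and 1.37 for PARP1CKO, 1.30 and 1.25 for PARP2 WT, and 0.570 and 0.704 for PARP2CKO. It had the largest difference of the set in PARP2CKO (-1.01 ± 0.29), and in PARP1CKO the value was -0.02 ± 0.28. Gpt2, the mitochondrial alanine transaminase, had 21.8 and 19.6 CPM for PARP1 WT, 23.02 and 21.9 for PARP1CKO, 17.8 and 20.01 for PARP2 WT, and 17.02 and 17.4 for PARP2CKO, and was higher in PARP1CKO (0.12 ± 0.078) and lower in PARP2CKO (-0.14 ± 0.078), both without overlap. Cth, which makes cysteine, was at a low level too, with 0.827 and 0.645 CPM for PARP1 WT, 0.654 and 1.11 for PARP1CKO, 0.294 and 0.519 for PARP2 WT, and 0.218 and 0.290 for PARP2CKO, and log2 fold changes of 0.26 ± 0.35 and -0.68 ± 0.44.

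Of the 9 transporters, 8 were lower in PARP2CKO without overlap (18.8% of all tested genes). Slc7a11, the cystine importer, had 71.5 and 54.7 CPM for PARP1 WT, 59.7 and 98.1 for PARP1CKO, 53.6 and 55.3 for PARP2 WT, and 39.2 and 49.7 for PARP2CKO. PARP1CKO replicate 2 was above all other libraries, and the log2 fold changes were 0.32 ± 0.21 in PARP1CKO and -0.30 ± 0.22 in PARP2CKO. Slc7a5, the leucine transporter LAT1, had 81.2 and 76.6 CPM for PARP1 WT, 79.96 and 99.9 for PARP1CKO, 71.8 and 82.7 for PARP2 WT, and 62.04 and 63.6 for PARP2CKO, with 0.19 ± 0.099 and -0.30 ± 0.099. The heavy chain that pairs with both, Slc3a2, had 450.3 and 465 CPM for PARP1 WT, 469 and 491 for PARP1CKO, 477 and 497 for PARP2 WT, and 509 and 496 for PARP2CKO, with 0.07 ± 0.045 and 0.05 ± 0.045, so that it did not share the lower level of its partners. Slc7a1, an importer of arginine and lysine, had 152 and 137 CPM for PARP1 WT, 144 and 158 for PARP1CKO, 131 and 136 for PARP2 WT, and 121 and 123 for PARP2CKO, and the PARP2CKO libraries were below the other 6 (-0.13 ± 0.060, against 0.06 ± 0.060 in PARP1CKO). Its relative Slc7a3 was scarce, with 0.336 and 0.242 CPM for PARP1 WT, 0.159 and 0.442 for PARP1CKO, 0.259 and 0.442 for PARP2 WT, and 0.218 and 0.145 for PARP2CKO, and its fold changes are poorly determined (0.05 ± 0.53 and -0.90 ± 0.53). Slc1a4, which carries alanine, serine and cysteine, had 14.7 and 12.1 CPM for PARP1 WT, 14.9 and 19.5 for PARP1CKO, 10.6 and 12.99 for PARP2 WT, and 7.66 and 8.91 for PARP2CKO. It was above both controls in PARP1CKO (0.36 ± 0.15) and below both in PARP2CKO (-0.51 ± 0.16), the widest such contrast among the members. Slc1a5, which carries glutamine, had 109 and 94.8 CPM for PARP1 WT, 96.5 and 97.8 for PARP1CKO, 94.1 and 98.5 for PARP2 WT, and 89.95 and 93.5 for PARP2CKO, with -0.07 ± 0.064 and -0.07 ± 0.064. The last value is small, although the PARP2 groups did not overlap. Slc6a9, the glycine transporter GLYT1, had 17.03 and 11.2 CPM for PARP1 WT, 15.98 and 17.5 for PARP1CKO, 9.55 and 10.7 for PARP2 WT, and 6.97 and 8.66 for PARP2CKO, and the PARP2CKO libraries were the lowest of the 8 (-0.38 ± 0.19, against 0.25 ± 0.18 in PARP1CKO). Slc38a2, a neutral amino acid transporter raised by starvation, had 269 and 232 CPM for PARP1 WT, 249 and 288 for PARP1CKO, 203 and 223 for PARP2 WT, and 178 and 199.8 for PARP2CKO, with -0.17 ± 0.095 in PARP2CKO and 0.10 ± 0.094 in PARP1CKO.

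**Figure D3:**
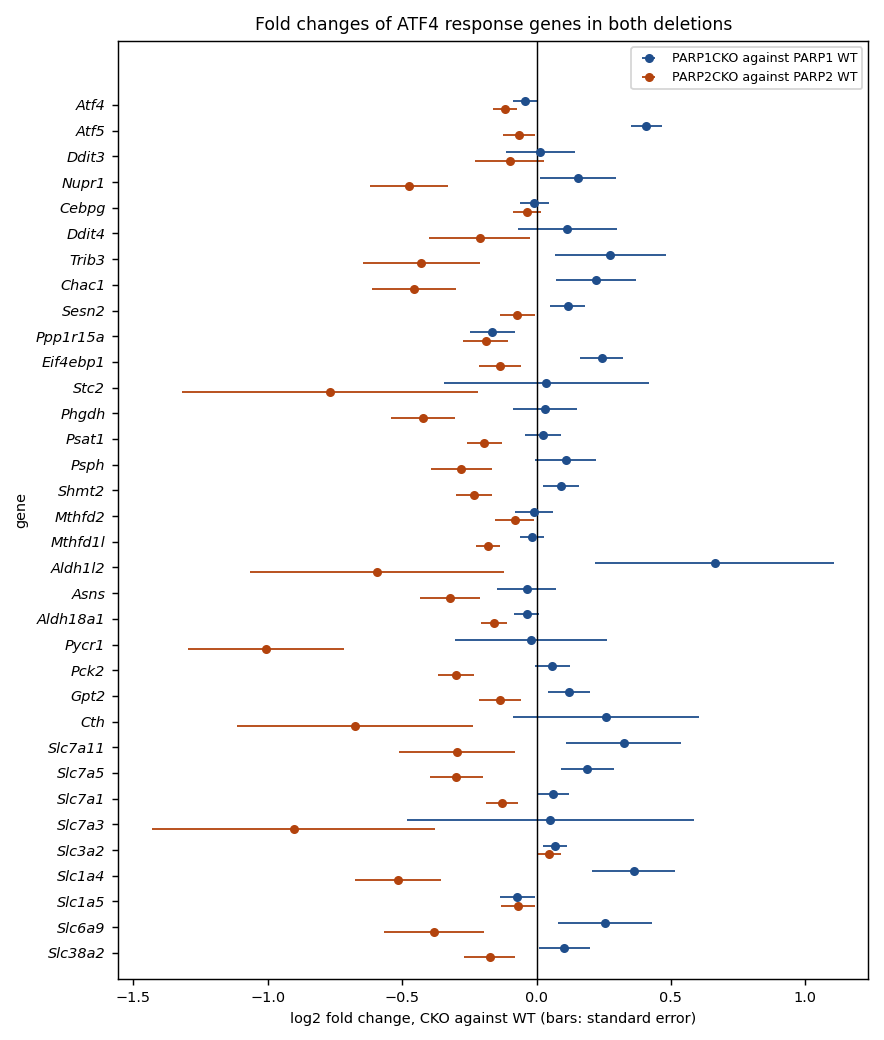
Log2 fold change of each measured ATF4 response gene in PARP1CKO against PARP1 WT and in PARP2CKO against PARP2 WT, from the fit to all 8 libraries. Bars are standard errors. In PARP2CKO 33 of the 34 points lie below 0, and in PARP1CKO 25 lie above it. The PARP1CKO count above 0 is 15 without PARP1 WT replicate 2 or without PARP1CKO replicate 2.

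Counted over the set, the PARP2CKO libraries lay below both PARP2 WT libraries in 26 of the 34 members and above both in none, where the table-wide shares were 18.8% and 18.4%. In 24 of the 34 they lay below all 6 other libraries, against 8.10% of tested genes. With edgeR's quasi-likelihood test and Benjamini-Hochberg adjustment over all 13197 genes, 0 members passed 0.05, where 0.0530% of all genes did. At an unadjusted p under 0.05, 15 members were lower (2.46% of all genes) and 0 higher (2.36%). The likelihood-ratio test and DESeq2 each called 1 (0.296% and 0.205%), in both cases a gene whose change served to choose the set, so nothing is read from these counts. Without Phgdh, Pck2 and Atf5, 30 of 31 members were lower, with a median of -0.21, and 24 did not overlap. With each library left out in turn, 32 or 33 of the 34 remained lower, and Cebpg and Ddit3 were the only members to change sign, without PARP2 WT replicate 2 or PARP2CKO replicate 1. The median of -0.22 went to -0.14 without PARP2 WT replicate 2 and to -0.32 without PARP2 WT replicate 1.

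In PARP1CKO the members had a median log2 fold change of 0.08, and 52.1% of all tested genes were higher. Atf5, Chac1, Sesn2, Eif4ebp1, Gpt2, Slc3a2 and Slc1a4 were above both PARP1 WT libraries (7 of 34, against 21.0% of all genes), and Ppp1r15a and Mthfd1l were below both (2 of 34, against 20.2%). The quasi-likelihood test called 0 members (0.106% of all genes), with 3 higher (6.11%) and 0 lower (5.15%) at an unadjusted p under 0.05, and the likelihood-ratio test and DESeq2 each called 1 (1.11% and 0.652%), again a gene whose change served to choose the set. The direction of the set rested on single libraries. Without PARP1 WT replicate 2, or without PARP1CKO replicate 2, 15 members were higher and 19 lower, with medians of -0.02 and -0.01. Without PARP1 WT replicate 1, or without PARP1CKO replicate 1, 30 were higher and 4 lower, with medians of 0.21 and 0.17.

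The difference between the deletions was also examined, as the PARP2CKO effect minus the PARP1CKO effect. It was negative for 33 of the 34 members (52.2% of all genes), with a median of -0.34, and Slc1a5 was the 1 positive member (47.8%). The quasi-likelihood test called 0 members (0.0152% of all genes), with 16 negative (4.09%) and 0 positive (3.60%) at an unadjusted p under 0.05, and the likelihood-ratio test and DESeq2 each called 2 (0.546% and 0.349%), and nothing is read from these counts either. In Chac1, Eif4ebp1, Gpt2 and Slc1a4 the knockout libraries lay above both controls in the PARP1 line and below both in the PARP2 line (4 of 34, against 3.32% of all tested genes). For Slc1a4 the difference was -0.88 ± 0.22, for Atf5 -0.47 ± 0.082, for Phgdh -0.45 ± 0.17 and for Pck2 -0.36 ± 0.094. The mean of both effects was negative for 28 of the 34 (49.0% of all genes) and positive for 6 (51.0%), with a median of -0.07, and 0 were called by the quasi-likelihood test (0.106%), the likelihood-ratio test (0.659%) or DESeq2 (0.470%), with 8 lower (4.19%) and 1 higher (4.98%) at an unadjusted p under 0.05. Both quantities moved with single libraries. The difference was positive for up to 5 members, without PARP1 WT replicate 2, and its median lay between -0.43 and -0.24 with each library left out. The mean of both effects was positive for 13 members without PARP1CKO replicate 1, for 12 without PARP1 WT replicate 1 or PARP2CKO replicate 1 and for 11 without PARP2 WT replicate 2, and its median lay between -0.12 and -0.02.

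The 2 control groups were compared with tests on the assumption that their difference did not serve to choose the members, which the rule does not state, and line and any batch cannot be told apart in it. Their libraries are also the controls of the knockout comparisons taken to have chosen the set. The tests are therefore not independent of that choice. In PARP2 WT 29 of 34 members were lower (49.6% of all genes) and 5 higher (50.4%) than in PARP1 WT, with a median of -0.13, and 15 were lower without overlap (25.2%), while Slc3a2 alone was above both PARP1 WT libraries (26.7%). The quasi-likelihood test called 0 members at an adjusted p under 0.05, where 3.16% of all genes passed, and 8 were lower at an unadjusted p under 0.05 (8.63%) with 0 higher (10.3%). The likelihood-ratio test called 1, Sesn2 (6.90%), and DESeq2 1, Asns (4.18%). In the quasi-likelihood fit the smallest adjusted p was that of Sesn2, at 0.102, with a log2 fold change of -0.23 ± 0.065 and all PARP2 WT libraries below all PARP1 WT libraries. Next were Aldh18a1 at -0.14 ± 0.047 (adjusted p = 0.148), Asns at -0.32 ± 0.11 (adjusted p = 0.165), Stc2 at -1.25 ± 0.44 (adjusted p = 0.173), Trib3 at -0.57 ± 0.21 (adjusted p = 0.197) and Slc6a9 at -0.47 ± 0.18 (adjusted p = 0.209). The count of lower members was 20 of 34 without PARP1 WT replicate 1 and 24 without PARP2 WT replicate 1, and the median went from -0.13 to -0.03 and -0.05. Markers of several other cell types were also lower in this comparison, and those of macrophages and neutrophils were mostly higher. All 7 measured B cell genes were lower in PARP2 WT (49.6% of all genes), with a median of -1.81 and 6 called by the quasi-likelihood test (3.16%). All 8 basophil and mast cell genes were lower (49.6%), with a median of -0.72, 1 called (3.16%) and 7 at an unadjusted p under 0.05 (8.63%). Of 6 erythroid genes with counts of their own, 5 were lower, with a median of -0.998 and 1 called (Hba-a1 and Hba-a2 have the same counts in every library, as do Hbb-bs and Hbb-b1, and each pair was taken once). All 3 measured T and NK cell genes were lower with 0 called, and 4 of 7 stromal genes were lower with 0 called. Of 11 neutrophil genes, 7 were higher, all without overlap, with a median of 0.22 over the list, 2 called higher and 1 lower. Of 10 macrophage and monocyte genes, 8 were higher, 6 of them without overlap, with a median of 0.07 and 2 called. The part of these cells in the difference between the control groups was not tested.

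Replicate libraries of the same genotype also differed in a coordinated way. In PARP1 WT 33 of the 34 members were higher in replicate 1 than in replicate 2 (49.5% of all genes), by a median of 0.19 on the log2 CPM scale, and Slc3a2 was the exception. In PARP1CKO 30 of 34 were higher in replicate 2 (51.2%), with a median difference between replicates 1 and 2 of -0.16. Replicate 2 was likewise higher for 32 of 34 members in PARP2 WT (49.97%, median -0.16) and for 30 of 34 in PARP2CKO (49.2%, median -0.11). The differences of Aldh1l2 were wide, at 1.35, -1.01, -0.70 and -0.55 in PARP1 WT, PARP1CKO, PARP2 WT and PARP2CKO, and those of Trib3 were 0.50, -0.45, -0.26 and -0.47 in the same order. Phgdh differed by 0.39 between the PARP1 WT libraries, close to the size of its knockout difference in PARP2CKO. Slc3a2, between -0.07 and 0.04 in the 4 groups, and Atf5, between -0.17 and 0.07, varied less. In each of the 4 groups the library with more counts had the lower levels: the PARP1 WT libraries summed to 37852450 and 48844494 counts, PARP1CKO to 50205256 and 44047730, PARP2 WT to 58441153 and 52348498, and PARP2CKO to 61845125 and 49086916. The part of depth in these differences was not tested.

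**Figure D4:**
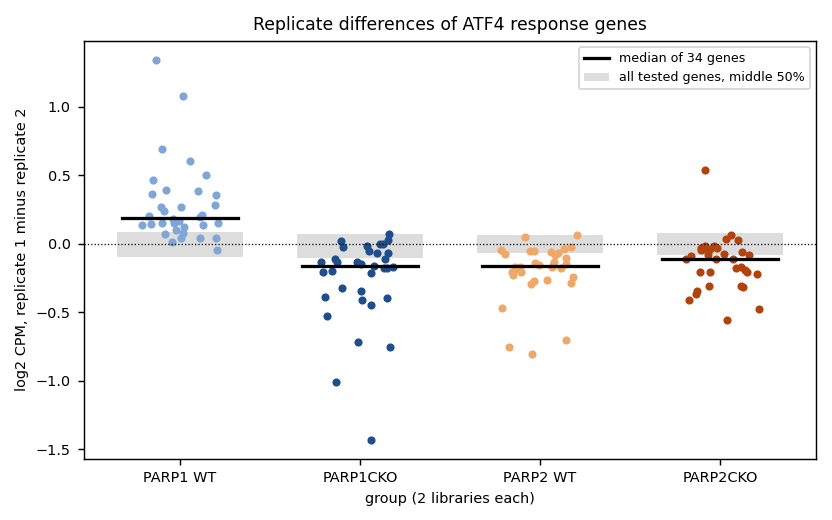
Difference in log2 CPM between replicate 1 and replicate 2 within each group, with 1 point for each of 34 ATF4 response genes. Black bars are medians (0.19, -0.16, -0.16 and -0.11 from left to right) and gray boxes hold the middle 50% of all tested genes.

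The mean of the members' log2 levels, each relative to its mean over all 8 libraries, was 0.28 and -0.00 for PARP1 WT, 0.12 and 0.38 for PARP1CKO, -0.14 and 0.05 for PARP2 WT, and -0.41 and -0.28 for PARP2CKO. Both PARP2CKO libraries were lowest and PARP1CKO replicate 2 highest. Of the 6 roles, the feedback and stress effectors spread widest, from -0.55 in PARP2CKO replicate 1 to 0.45 in PARP1CKO replicate 2, and the transcription factors least, from -0.25 to 0.29. The scarce effector Stc2 widened that range, at -1.31 in PARP2CKO replicate 1 and 1.01 in PARP1CKO replicate 2. The other amino acid enzymes reached from -0.53 to 0.38 in the same libraries. PARP1CKO replicate 2 held the highest value of 19 of the 34 members and PARP1 WT replicate 1 that of 11, whereas these libraries were highest for 18% and 15.4% of all tested genes. PARP2CKO replicate 1 held the lowest value of 29, against 17.4% of all genes.

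The medians of members with the C/EBP-ATF motif in their window lay further from 0 than those of members without it, although single genes of both kinds overlapped. The median log2 fold change in PARP2CKO was -0.44 for the 8 with the motif and -0.17 for the 20 measured members without it, and in PARP1CKO it was 0.19 and 0.05. Between replicates the medians with and without the motif were 0.28 and 0.14 for PARP1 WT, -0.40 and -0.13 for PARP1CKO, -0.19 and -0.15 for PARP2 WT, and -0.21 and -0.08 for PARP2CKO. Without the motif Stc2 and Phgdh were at -0.77 and -0.42 in PARP2CKO, and with it Asns and Pck2 were at -0.32 and -0.30. No test was made of this difference. Several genes with the motif, such as Trib3, Chac1 and Slc1a4, were also among the less abundant members.

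In the knockout comparisons other lists around the pathway had medians nearer 0 than the members. Several marker lists of other cell types, given further below, did not. Of 20 cytosolic tRNA synthetases, which charge tRNAs with amino acids and include known ATF4 targets, 16 were lower in PARP2CKO (50.7% of all tested genes), with a median of -0.07, and 12 were lower without overlap (18.8%). The quasi-likelihood test, the likelihood-ratio test and DESeq2 called 0 of them, with 2 lower at an unadjusted p under 0.05 (2.46%). Cars, for cysteine, had the largest value (-0.17 ± 0.048; quasi-likelihood test, adjusted p = 0.84), with 90.8 and 97.1 CPM in PARP2 WT and 81.9 and 85.4 in PARP2CKO. In PARP1CKO 13 of the 20 were lower (47.9% of all tested genes), with a median of -0.02. Between replicates 16 of 20 were higher in PARP1 WT replicate 1, and 13, 14 and 13 were higher in replicate 2 of PARP1CKO, PARP2 WT and PARP2CKO.

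The 13 kinases and regulators upstream of ATF4 had median log2 fold changes of 0.03 in PARP1CKO and -0.02 in PARP2CKO. Eif2ak4, which encodes the amino acid sensor kinase GCN2, was lower in PARP2 WT than in PARP1 WT, with a log2 fold change of -0.39 (quasi-likelihood test, adjusted p = 0.0375), and passed in 10 of 16 alternative analyses, with adjusted p-values from 0.00064 to 0.141. The 20 genes of the other arms of the unfolded protein response had medians of -0.03 and -0.03, and the 10 targets of the oxidative stress factor NRF2 medians of 0.05 and -0.01, in PARP1CKO and PARP2CKO. Cytosolic and other folate genes, 15 in number, had medians of -0.03 and -0.02, and 13 other basic leucine zipper factors 0.07 and 0.05. In PARP2 WT against PARP1 WT the leucine zipper list had a median of 0.14, further from 0 than the members' -0.13. In these 5 lists of related genes the quasi-likelihood test called 0 genes in either knockout comparison, with at most 3 per list at an unadjusted p under 0.05, and the likelihood-ratio test and DESeq2 each called 1, the folate receptor gene Folr2, in both. Folr2 was higher in both knockouts, with 30.5 and 26.8 CPM for PARP1 WT, 45.6 and 43.8 for PARP1CKO, 24.4 and 29.8 for PARP2 WT, and 42.7 and 35.2 for PARP2CKO. The medians of these 5 lists stood within the middle 50% of all tested genes, which reached from -0.07 to 0.09 in PARP1CKO and from -0.06 to 0.05 in PARP2CKO. The tRNA synthetase median of -0.07 in PARP2CKO lay below it, as did that of the members. In PARP1CKO the member median of 0.08 lay within it. The members were taken to be chosen in part by changes in these comparisons, so their distance from the other lists is a description.

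**Figure D5:**
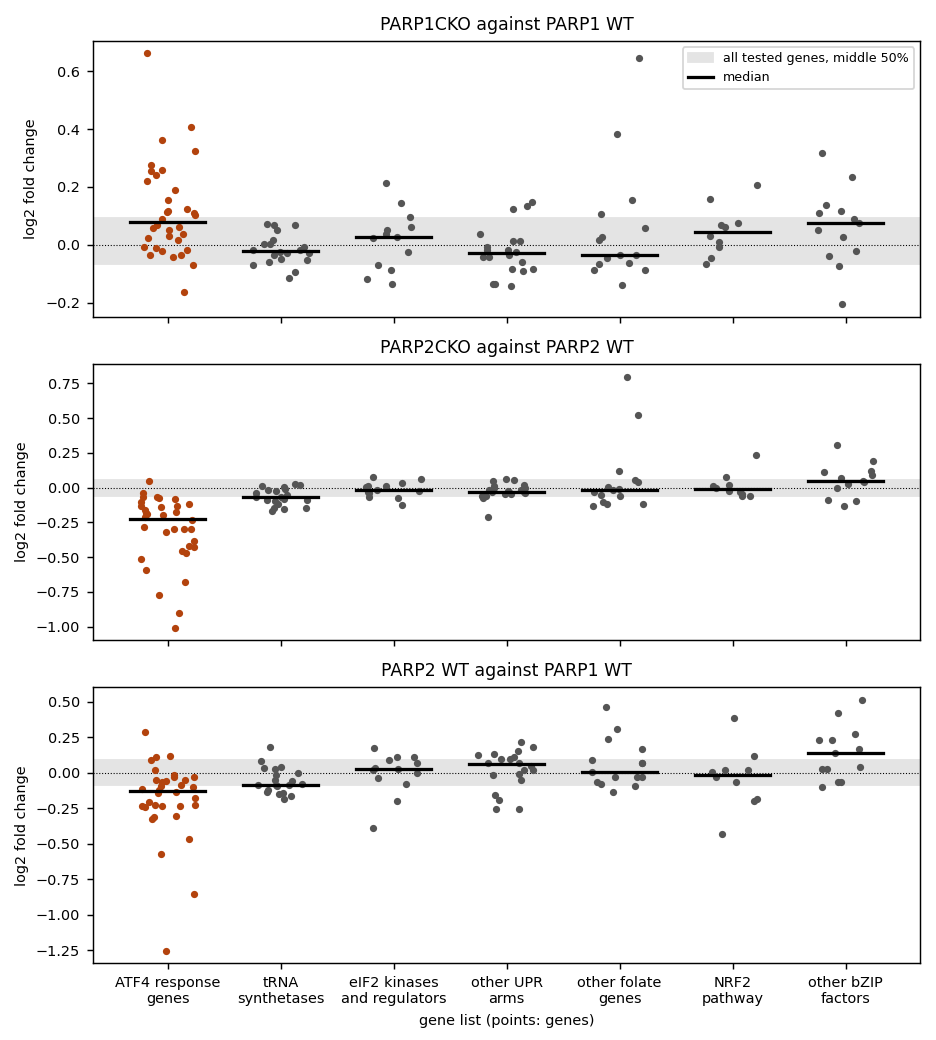
Log2 fold changes of the ATF4 response genes and of 6 related gene lists, with PARP1CKO over its control at the top, PARP2CKO over its control in the middle and PARP2 WT over PARP1 WT at the bottom. Points are genes, black bars medians and the gray band holds the middle 50% of all tested genes. In PARP2CKO the member median of -0.22 lies below that band, and in PARP1CKO that of 0.08 lies within it.

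Markers of other cells moved with the members in part. Median log2 fold changes in PARP2CKO were -0.36 for basophil and mast cell genes and -0.39 for T and NK cell genes. They were -0.18 for B cell, -0.16 for neutrophil, -0.12 for erythroid and 0.06 for macrophage and monocyte genes, beside -0.22 for the members. In PARP1CKO they were -0.01, 0.45, 0.27, -0.06, 0.59 and 0.01 in the same order, beside 0.08. Basophil and mast cell genes summed to 35.1 and 31.8 CPM in PARP2 WT, 25.4 and 25.8 in PARP2CKO, 59.3 and 56.1 in PARP1 WT and 55.1 and 60.2 in PARP1CKO. All 8 were lower in PARP2CKO (50.7% of all tested genes), 6 of them without overlap (18.8%). Of these 8, the quasi-likelihood test called 0 (0.0530%), and 3 were lower at an unadjusted p under 0.05 (2.46%). B cell genes summed to 34.8 and 29.6 CPM for PARP1 WT, 31.1 and 43.3 for PARP1CKO, 11.5 and 9.48 for PARP2 WT, and 8.18 and 11.1 for PARP2CKO, so that they too were highest in PARP1CKO replicate 2 and lowest in PARP2CKO replicate 1. Of 11 neutrophil genes, 10 were lower in PARP2CKO (50.7% of all tested genes) and 8 were lower without overlap (18.8%), with 0 called by the quasi-likelihood test, 1 by the likelihood-ratio test or DESeq2 and 2 at an unadjusted p under 0.05 (2.46%). In PARP1CKO 7 of the 11 were lower (47.9%) and 4 higher (52.1%), with a median of -0.06. There the quasi-likelihood test, the likelihood-ratio test and DESeq2 called 0, with 1 higher (6.11%) and 0 lower (5.15%) at an unadjusted p under 0.05. Erythroid genes, with each pair of identical globin genes taken once, summed to 5.48 and 5.502 CPM for PARP1 WT, 6.88 and 8.89 for PARP1CKO, 3.89 and 3.25 for PARP2 WT, and 3.10 and 3.48 for PARP2CKO. Of the 6 measured, 5 were higher in PARP1CKO (52.1%) and 3 lower in PARP2CKO (50.7%), with 0 called by the quasi-likelihood test in either comparison. At an unadjusted p under 0.05, 1 was higher in PARP1CKO (6.11%) and 1 lower in PARP2CKO (2.46%). The likelihood-ratio test called 1 of them in PARP1CKO and 0 in PARP2CKO, and DESeq2 called 0 in both. Genes of T and NK cells summed to 2.97 and 2.94 CPM for PARP1 WT, 3.31 and 4.42 for PARP1CKO, 2.82 and 2.96 for PARP2 WT, and 2.06 and 2.71 for PARP2CKO. Of the 8, 3 passed the filter on low counts, and all 3 were higher in PARP1CKO (52.1%) and lower in PARP2CKO (50.7%). The quasi-likelihood test, the likelihood-ratio test and DESeq2 called 0 of them. At an unadjusted p under 0.05, 1 was higher in PARP1CKO (6.11%). Both sums were highest in PARP1CKO replicate 2 and lowest in PARP2CKO replicate 1, as the mean of the members was. Cd4 had log2 fold changes of 0.49 and -0.39 and Cd8a 0.45 and -0.68 in PARP1CKO and PARP2CKO, while Cd3e, Cd3d and Cd3g, which define T cells, were at most 0.115 CPM in any library. Stromal genes summed to between 10.1 and 15.02 CPM, with medians of -0.44 in PARP1CKO and -0.23 in PARP2CKO and 0 called by the quasi-likelihood test, the likelihood-ratio test or DESeq2, also at an unadjusted p under 0.05. The part of these cells in the levels of the ATF4 response genes was not tested.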

How the data were processed

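Per the labels, total RNA libraries were made from 4 µg of RNA with a stranded kit and sequenced. The authors trimmed single-end reads, mapped them to mm10 with TopHat2 2.0.12, marked duplicates with Picard 1.127 and counted reads per gene with featureCounts, per the submitters' processing notes and the methods. The deposited values are these raw counts. The annotation, the strand setting and the treatment of duplicates are not given in the sources used here, so counts of members whose exons overlap another gene are uncertain. Gene positions and exon lengths were taken from GENCODE M21 (mm10).

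From the counts, CPM were computed with TMM factors in edgeR 4.0.16 (R 4.3.3). Genes were kept by filterByExpr with a minimum count of 10. All 8 libraries entered a quasi-likelihood fit with a mean for each group, p-values were adjusted over 13197 genes by Benjamini-Hochberg, and the threshold was 0.05. The study's methods name edgeR on FPKM, whereas counts were used here. Log2 levels per library used a prior count of 0.5. The common biological coefficient of variation was 0.055, and totals of 37852450 to 61845125 counts per library limit precision most for the scarcest members. For 1 gene in 2 against 2 libraries, the smallest two-sided p of an exact permutation test is 0.333. Replicates differed by more than counting noise in all groups.

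The members and gene lists were chosen with earlier results of these data known. Every member is named. Values per library are given for Phgdh, Pck2, Atf5, members of at least 50 CPM on average and up to 10 more per knockout comparison, by size of the log2 fold change among those without overlap. Other genes are named where they were called or were among the largest changes of their list. Alternatives were DESeq2 1.42.0, the likelihood-ratio test, other scalings and filters, 4 libraries alone, a replicate block, and leaving out each library. Figures were drawn with matplotlib 3.10.9.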

Additional observations from a re-analysis of the deposited data

Results flagged for a closer look

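In 4 members all libraries of PARP1CKO lay above both PARP1 WT libraries while all libraries of PARP2CKO lay below both PARP2 WT libraries, so that the deletions differed in sign. Of all tested genes, 3.32% separated in this way. The PARP2CKO effect minus the PARP1CKO effect was -0.68 for Chac1, -0.38 for Eif4ebp1, -0.26 for Gpt2 and -0.88 for Slc1a4 on the log2 scale. Both effects of these genes belong to the comparisons taken to have chosen the set, so the values are given as descriptions, without a test.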

How the results depend on the processing

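The median log2 fold changes of the members kept their sign under every other scaling, filter and tool. With 1 library left out, where the lone sample is assumed to vary like the other groups, the PARP1CKO median lay between -0.02 (-0.016 without PARP1 WT replicate 2) and 0.21 (without PARP1 WT replicate 1). The PARP2CKO median lay between -0.32 and -0.14.

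For PARP1CKO, 1 member was called in place of 0 by DESeq2 (86 of all 13197 genes called), by the likelihood-ratio test (146) and without a filter on low counts (101 of 17542), against 14 by the quasi-likelihood test. Leaving out a library gave 0 to 1, with 1 called without PARP1CKO replicate 1 (34 of 13398 genes). For PARP2CKO, DESeq2 (27) and the likelihood-ratio test (39) called 1, against 7 genes in all. For the difference of the effects, DESeq2 (46), the likelihood-ratio test (72) and no filter (61 of 17542) called 2, against 2 genes in all. Leaving out a library gave 0 to 1, with 1 called without PARP1CKO replicate 1 (16 of 13398). For PARP2 WT against PARP1 WT, DESeq2 (551) and the likelihood-ratio test (910) called 1 and no filter (872 of 17542) called 2, against 417 genes in all. Leaving out a library gave 0 to 1, with 1 called without PARP1 WT replicate 2 (319 of 13421). The cause was not tested.

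The replicate numbers are shared by label only. Over 13197 genes the differences between replicates correlated at r = -0.124 between PARP1 WT and PARP1CKO and 0.126 between PARP2 WT and PARP2CKO. With the replicate number as a block, 0 members were called in every comparison, where 14 genes of 13197 were called for PARP1CKO, 6 for PARP2CKO, 3 for the difference of the effects, 6 for their mean and 315 for the control groups, and the PARP2CKO median was -0.22. Crossing the numbers of the PARP1 groups, chosen after seeing the data, called 1 member in PARP1CKO (18 of 13197 genes). A fit to the 4 libraries of the PARP2 line alone kept 33 members. Counts were lowest for Cbs, Stc2, Slc7a3, Cth and Pycr1, with at most 34 in their lowest library, followed by Ddit4, Aldh1l2 and Chac1, with 138, 229 and 255.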

Other observations

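Some genes of the related lists differed between the control groups, where the quasi-likelihood test called 0 members. In PARP2 WT against PARP1 WT the basic leucine zipper factor Cebpa had a log2 fold change of 0.51 (quasi-likelihood test in edgeR, adjusted p = 0.0383), and it passed in 9 of 16 alternative analyses. The endoplasmic reticulum genes Creld2 and Sdf2l1 and the tRNA synthetase gene Farsa were also called higher in PARP2 WT, and each passed in 6 of 16. Line and batch cannot be told apart in these values.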
